A study of Mus musculus with 2 samples.

Results

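The miR-200 family was described in small RNA from wild-type mouse hippocampus. Its 5 genes were chosen by name from the 2202 annotated microRNA (miRNA) genes of the deposited tables: Mir200b, Mir200a and Mir429 on chromosome 4, and Mir200c and Mir141 on chromosome 6. The rule uses names alone, though it was set with earlier results of these data known, and all 5 were found in the tables of both libraries. The study holds 1 group of 2 libraries, numbered by the labels as biological replicates 1 and 2. They were made from hippocampus, with the tissue type labelled as layer of hippocampus. The mice were C57BL/6 (strain B6NCrl, 6 months old, described as male, while the sex field is left uncollected). No genotype other than wild type and no treatment is given, so the only comparison the design allows is that of one library with the other. Both libraries carry the same donor identifier, the labels do not say whether they came from separate animals, and any spread between them may be technical. The cited version of the adapter-trimming protocol also differs between them, so the version and the replicate cannot be told apart.

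The miR-200 family is best known as a keeper of the epithelial state. Its members repress the transcription factors Zeb1 and Zeb2, which silence E-cadherin and drive cells towards a mesenchymal state, and these factors repress the miR-200 genes in return. In the nervous system the family is known from the olfactory epithelium and its neurons, and from the pituitary, where Mir200b and Mir429 are needed for ovulation. The genes lie in a pair of clusters, each made as 1 primary transcript that is cut into hairpins, and each hairpin yields a 5′ and a 3′ arm. Target choice rests mainly on the seed, bases 2 to 8 of the mature arm.

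The mature 3′ arms are shown here because their seeds divide the family in a way that cuts across the clusters. The sequences are those of RefSeq on GRCm38.p6, 5′ to 3′, all on the minus strand, with the seed in capitals. The hairpin and both arms were listed for 5 of the 5 genes.
miR-200b-3p (Mir200b, chr4:156055685-156055706): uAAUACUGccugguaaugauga
miR-429-3p (Mir429, chr4:156053916-156053937): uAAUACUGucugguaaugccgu
miR-200c-3p (Mir200c, chr6:124718324-124718346): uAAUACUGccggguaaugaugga
miR-200a-3p (Mir200a, chr4:156054911-156054932): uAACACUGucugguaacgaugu
miR-141-3p (Mir141, chr6:124717917-124717938): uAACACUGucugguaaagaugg
Mir200b, Mir429 and Mir200c share the seed AAUACUG, and Mir200a and Mir141 share AACACUG. Each cluster therefore holds both seeds. Of 1738 mature mouse sequences listed for 1058 genes, only these 3 arms had the first seed and only these 2 had the second. Counted from 1 at the 5′ end, Mir200c differs from Mir200b by U11G and A22G over the 22 bases compared, and Mir141 differs from Mir200a by C17A and U22G. Mir200a and Mir141 thus share their first 16 bases, the longest common start of any pair, while Mir200b and Mir200c share their first 10. In 141767 annotated transcripts an exact copy of each 3′ arm was found at its own locus alone, counting Gm13648 and Gm29008, which overlap Mir429 and Mir141. The rest of the genome was not searched.

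In these libraries the family was a minor part of the profile. The depth was 4247092 reads counted on miRNA genes in replicate 1 and 5041568 in replicate 2, and a further 43.8% and 45.7% of all reads aligned to more than 1 place and entered no gene's count. Levels are in CPM, counts scaled to a library of 1000000 reads on miRNA genes. On this scale 3 counts, below which a gene listed at 0 may lie, equal 0.706 and 0.595 CPM. The mature arms are 21 to 23 bases long, so levels were compared between genes with no correction for length. The 5 members together held 328 CPM (1391 counts) in replicate 1 and 688 CPM (3467 counts) in replicate 2, a mean of 508 ± 255 CPM (SD, n = 2). This was 0.0328% and 0.0688% of counted reads. Forebrain neuron miRNAs summed to 206441 and 185093 CPM, and 10 of the 10 listed stood at 10 CPM or more in both libraries. They were led by Mir139 at 156599 and 153300.1 CPM. In bulk tissue, fewer cells of a type and less RNA per cell cannot be told apart, and the counts do not separate the arms of a hairpin.

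Among the chromosome 4 genes, Mir200b (ENSMUSG00000065549.3, chr4:156055681-156055750) lies upstream of the others, in introns of Ttll10, a gene of the tubulin tyrosine ligase-like family, and of the noncoding gene Gm13648, both on the same strand. It had 395 counts, or 93.0 CPM (exact 95% interval 84.1 to 103), in replicate 1 and 1737 counts, or 345 CPM (329 to 361), in replicate 2. It ranked second in the family in replicate 1 and first in replicate 2. Mir200a (ENSMUSG00000065400.1, chr4:156054896-156054985), 695 bases downstream and in introns of the same 2 genes, had 80 counts, or 18.8 CPM (14.9 to 23.4), in replicate 1 and 93 counts, or 18.4 CPM (14.9 to 22.6), in replicate 2. Its level was thus nearly the same in both libraries. Mir429 (ENSMUSG00000065427.1, chr4:156053905-156053987), 908 bases further on, in an intron of Ttll10 and within an exon of Gm13648, had 609 counts, or 143 CPM (132 to 155), in replicate 1 and 808 counts, or 160.3 CPM (149 to 172), in replicate 2. Its intervals overlapped, as those of Mir200a did, while those of Mir200b stood far apart.

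The chromosome 6 genes lie 336 bases apart in introns of the noncoding gene Gm15884, and Mir141 also lies partly over an exon of Gm29008. Mir200c (ENSMUSG00000065462.3, chr6:124718322-124718390) had 290 counts, or 68.3 CPM (60.6 to 76.6), in replicate 1 and 760 counts, or 151 CPM (140.2 to 162), in replicate 2. Mir141 (ENSMUSG00000065474.1, chr6:124717914-124717985) had 17 counts, or 4.00 CPM (2.33 to 6.41), in replicate 1 and 69 counts, or 13.7 CPM (10.6 to 17.3), in replicate 2. Both were higher in replicate 2, with intervals that did not overlap, and Mir141 was the least counted member of the family in both libraries.

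**Figure D1:**
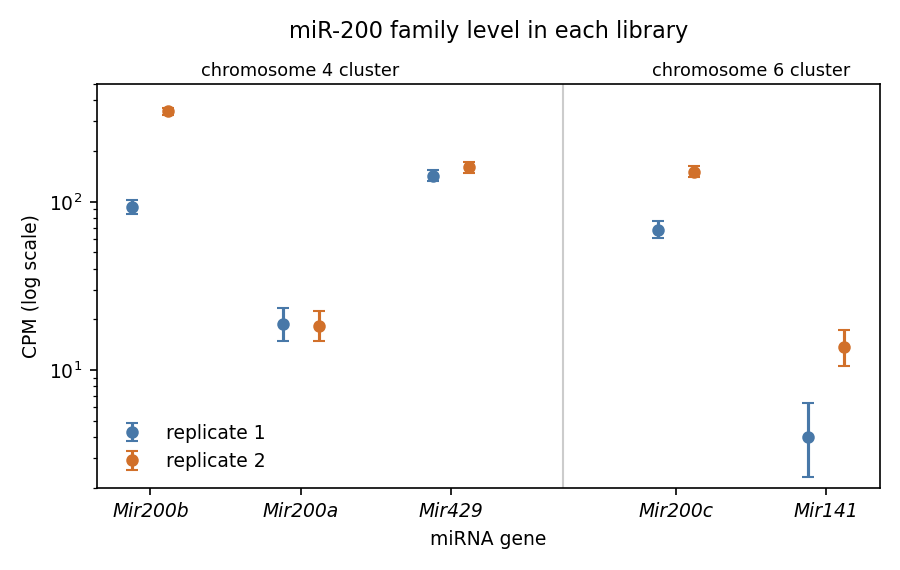
CPM of each gene (log axis) in replicate 1 (blue) and replicate 2 (orange), with exact 95% binomial intervals that cover counting error only. Mir200b, Mir200c and Mir141 sit higher in replicate 2, whereas the intervals of Mir200a and Mir429 overlap.

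The order of the members differed between the libraries. In replicate 1 Mir429 led with 43.8% of the family's counts (95% interval 41.2 to 46.4%, exact binomial), ahead of Mir200b with 28.4% (26.0 to 30.8%) and Mir200c with 20.8% (18.7 to 23.1%). In replicate 2 Mir200b led with 50.1% (48.4 to 51.8%), and Mir429 with 23.3% (21.9 to 24.7%) and Mir200c with 21.9% (20.6 to 23.3%) had overlapping intervals. Mir200a (5.75% and 2.68%) and Mir141 (1.22% and 1.99%) came last in both. By mean level the order was Mir200b (219 ± 178 CPM; SD, n = 2), Mir429 (152 ± 11.9 CPM), Mir200c (109.5 ± 58.3 CPM), Mir200a (18.6 ± 0.276 CPM) and Mir141 (8.84 ± 6.85 CPM). The first 3 did not differ from their neighbours in this order beyond their spread, while Mir200a lay below both values of Mir200c and above both values of Mir141. These are ranks 160, 174, 190, 282 and 322 of 2202 genes.

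Grouped by seed, the genes with AAUACUG held 93.0% (91.6 to 94.3%) of the family's counts in replicate 1 and 95.3% (94.6 to 96.0%) in replicate 2. The genes with AACACUG held the remaining 6.97% and 4.67%. Within each cluster the AACACUG gene was the least counted, Mir200a on chromosome 4 and Mir141 on chromosome 6, in both libraries. Grouped by cluster, chromosome 4 held 77.9% (75.7 to 80.1%) of the family's counts in replicate 1 and 76.1% (74.6 to 77.5%) in replicate 2. The ratio of the chromosome 4 sum to the chromosome 6 sum was 3.53 and 3.18, and its change from replicate 1 to replicate 2 was 0.901-fold with an exact 95% interval of 0.774 to 1.05. The split between clusters thus moved little while the split within the chromosome 4 cluster moved much.

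Each gene was then compared between the libraries by a two-sided exact binomial test on its counts, with p adjusted by the Benjamini-Hochberg method over 522 genes with at least 10 counts in all. Mir200b was 3.70-fold higher in replicate 2 (log2 ratio 1.89, exact 95% interval 1.73 to 2.05; adjusted p = 2.18e-152). Mir141 was 3.35-fold higher (log2 ratio 1.74, 0.99 to 2.63; adjusted p = 2.01e-06 by the exact test), and Mir200c was 2.21-fold higher (log2 ratio 1.14, 0.95 to 1.34; adjusted p = 1.32e-32 by the exact test). Mir429, at a log2 ratio of 0.16 (0.01 to 0.31), did not pass (exact test, adjusted p = 0.0749), and neither did Mir200a, at −0.03 (−0.48 to 0.42; exact test, adjusted p = 0.999).

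All 5 members passed the minimum of 10 counts, and 3 of them were called, each higher in replicate 2. Over all tested genes 51.0% were called, 28.2% higher and 22.8% lower in replicate 2, so a call by itself is common between these libraries. The median log2 ratio was 1.14 for the members and 0.09 for all 522 genes. A difference of at least the size of that of Mir200b in either direction was seen in 21 genes (4.02%), of that of Mir141 in 32 genes (6.13%) and of that of Mir200c in 67 genes (12.8%). These numbers include the member itself and genes with as few as 10 counts, whose ratios vary more by counting error. The binomial test compares the reads of 2 libraries, not conditions, and covers counting error only. Against the spread between the libraries themselves, with edgeR's exact test and a coefficient of variation of 0.328 (termed biological by edgeR) estimated from both, none of the 5 members was called, compared with 6 of the 522 genes (1.15%). The difference tested is itself part of that spread, so this test can call few genes. A member left uncalled is not thereby shown to be alike in both libraries. The adjusted p of the edgeR exact test was 0.278 for Mir200b, 0.602 for Mir141 and 1.00 for Mir200c. The unadjusted p of the edgeR exact test was under 0.05 for Mir200b (p = 0.00739) and Mir141 (p = 0.0295), and for 33 genes in all.

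**Figure D2:**
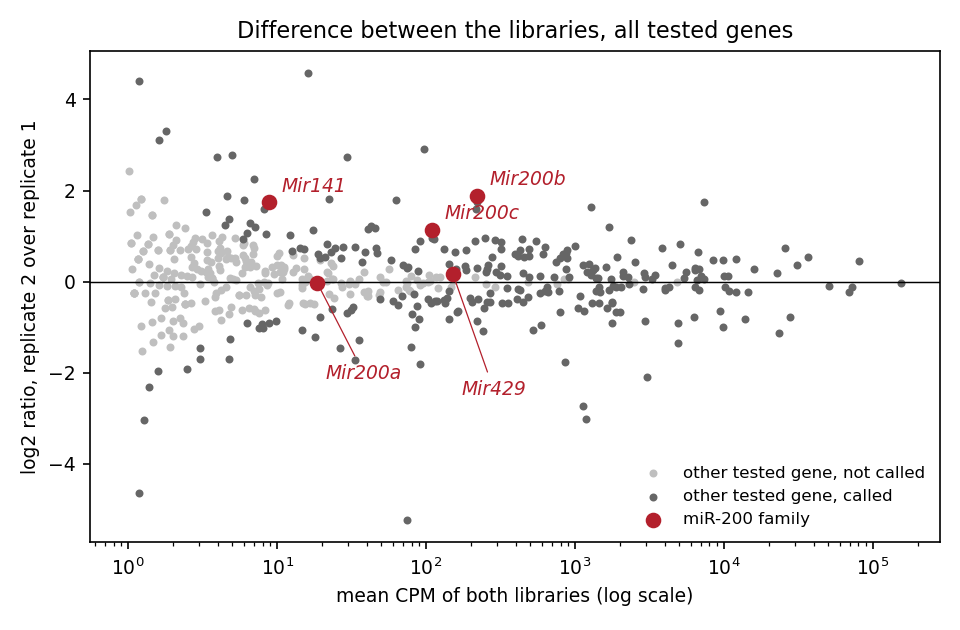
Log2 ratio of replicate 2 over replicate 1 against mean CPM (log axis) for all 522 tested genes, with the family in red, called genes in dark grey and genes not called in light grey. Mir200b, Mir141 and Mir200c lie above most genes of similar level, and Mir200a and Mir429 lie near 0.

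Ratios between members do not depend on how the libraries are scaled. The hairpins of the chromosome 4 cluster are shown 5′ to 3′ in genomic order of transcription, with the mature arms in capitals, because these neighbours differed most.
Mir200b: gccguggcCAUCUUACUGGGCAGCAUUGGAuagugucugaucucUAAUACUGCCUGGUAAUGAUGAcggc
Mir200a: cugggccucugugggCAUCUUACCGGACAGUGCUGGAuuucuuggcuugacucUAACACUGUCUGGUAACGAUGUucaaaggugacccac
Mir429: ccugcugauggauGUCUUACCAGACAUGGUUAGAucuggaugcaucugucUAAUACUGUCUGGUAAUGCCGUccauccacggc
The 3 hairpins lie within 1846 bases. Mir200b had 0.649 counts for each count of Mir429 in replicate 1 and 2.15 in replicate 2, a 3.31-fold difference (exact 95% interval 2.84 to 3.87). For each count of Mir200a, Mir200b had 4.94 counts in replicate 1 and 18.7 in replicate 2, a 3.78-fold difference (2.71 to 5.26). Mir429 and Mir200a, in contrast, kept their ratio within counting error, at 7.61 and 8.69 (1.14-fold, 0.820 to 1.59). Mir200b thus stood apart from both other genes of its cluster, of which Mir429 has its seed and Mir200a does not.

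On chromosome 6 the ratio of Mir141 to Mir200c was 0.0586 in replicate 1 and 0.0908 in replicate 2, a 1.55-fold difference whose exact 95% interval of 0.882 to 2.86 holds 1. Across the clusters, the ratio of Mir200b to Mir141, which differ in seed, changed 1.08-fold (0.590 to 1.89). This interval is wide because Mir141 had 17 counts in replicate 1, so it does not show that the ratio was kept. The ratio of Mir200c to Mir429, which share a seed, was 0.476 in replicate 1 and 0.941 in replicate 2 (1.97-fold, 1.66 to 2.35). Mir141 and Mir200a, the pair with the other seed, went from 0.212 to 0.742 (3.48-fold, 1.84 to 6.84). Of the 10 pairs of members, 7 had an interval that left out 1. Of these 2 were among the 4 pairs within a cluster and 5 among the 6 pairs across clusters.

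**Figure D3:**
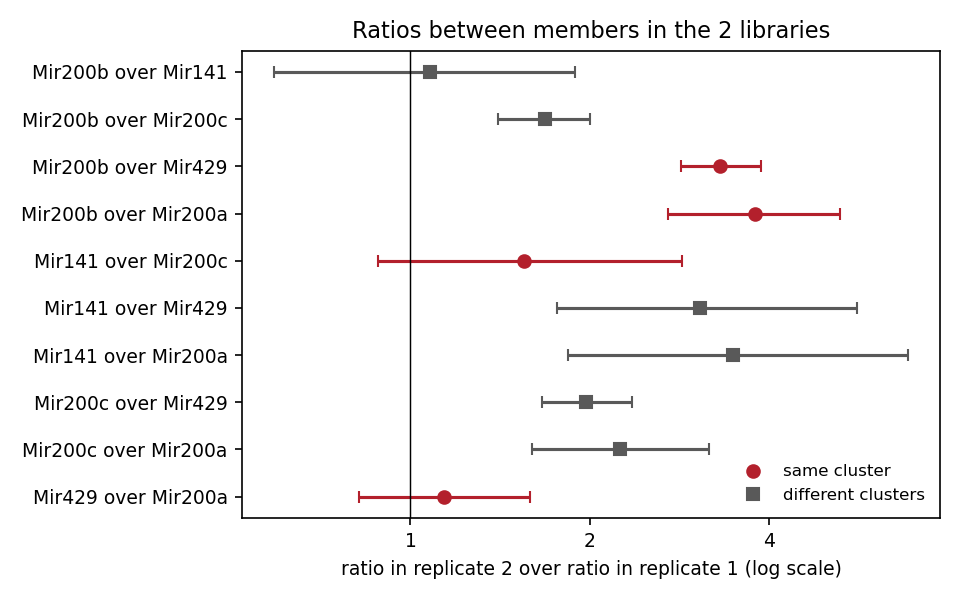
Ratio of each pair of members in replicate 2 divided by the same ratio in replicate 1 (log axis), with exact 95% intervals that cover counting error only, for pairs of 1 cluster (red circles) and of different clusters (grey squares). Mir200b over Mir429 (3.31) and over Mir200a (3.78) lie well above 1, and Mir429 over Mir200a (1.14) does not.

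The gap inside the chromosome 4 cluster was set beside other miRNA genes that lie next to each other. Among genes with at least 100 counts in all, 93 neighbouring pairs lay on 1 strand within 10000 bases, and their log2 ratios differed by a median of 0.37 (quartiles 0.18 and 0.91). Mir200a and Mir200b differed by 1.92, the largest of the 93 differences, and Mir429 and Mir200a by 0.19, which 68 pairs reached. The next largest was 1.78, between Mir764 and Mir1264, and 16 pairs differed by 1 or more. No counting error is attached to these differences, and Mir200a had 80 and 93 counts, so the order of the largest is not settled. Mir182 and Mir183, a pair of another cluster, differed by 0.20. This comparison was chosen after the values were seen and is a description. Mir141 fell below the minimum of 100 counts, so the chromosome 6 pair is not in it.

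**Figure D4:**
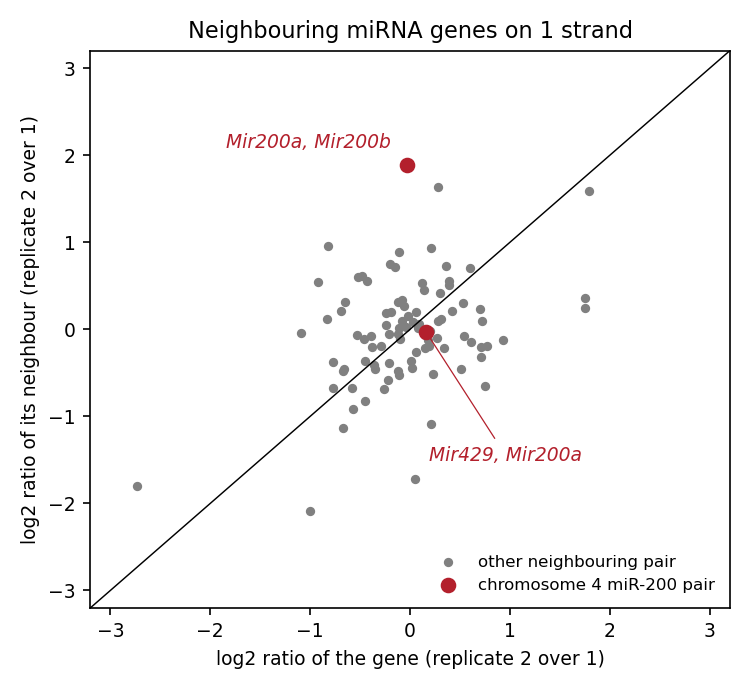
Log2 ratio of replicate 2 over replicate 1 of each miRNA gene (horizontal axis) and of its neighbour on the same strand (vertical axis) for 93 pairs, with the line of equal ratios. Mir200a and Mir200b (red) lie 1.92 off the line and Mir429 and Mir200a lie 0.19 off it.

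The genes nearest to each member in level in both libraries were found by the distance in log2(CPM + 1) over the 2 libraries, which with 2 points is a description of level and of the difference between the libraries. Nearest to Mir200b were Mir296 (101 and 338 CPM, distance 0.115) and Mir183 (109 and 327 CPM, distance 0.238). Nearest to Mir200c were Mir3072 (73.9 and 144 CPM, distance 0.133) and Mir505 (78.2 and 149 CPM, distance 0.194). Mir429 was nearest to Mir210 (150.5 and 152 CPM, distance 0.104) and Mir7-2 (145 and 175 CPM, distance 0.130), and Mir200a to Mir6897 (16.2 and 16.9 CPM, distance 0.236) and Mir542 (21.4 and 21.6 CPM, distance 0.281). Mir141, under 10 CPM in replicate 1, was not matched. The members of the family thus had different nearest genes, and none was nearest to another.

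Other miRNAs tied to the epithelial state differed between the libraries in both directions. The counts of this and the following lists stand beside 28.2% called higher and 22.8% called lower over all 522 tested genes, and nothing is read from them as particular to a list. Of 12 genes on the epithelial side of the switch between the epithelial and mesenchymal states, 10 could be tested. In replicate 2, 1 of these was called higher, 6 were called lower and 3 were not called, with a median log2 ratio of −0.60. Mir34a, a p53 target, was the one called higher, at 2908 and 4823 CPM (log2 ratio 0.73). Mir34c, which targets the mesenchymal factor Snai1, stood at 1959 and 296 CPM (−2.73), and Mir30a at 4253 and 3739.9 CPM (−0.19). Mir203, a miRNA of stratified epithelium, had 164 and 71 counts and a log2 ratio of −1.45 (exact 95% interval −1.88 to −1.05). Mir203 was chosen after its values were seen and lies outside the naming rule. The ratio of Mir200b, the member that differed most between the libraries, to Mir203 was 2.41 in replicate 1 and 24.5 in replicate 2. This was a 10.1-fold difference (exact 95% interval 7.46 to 13.9).

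On the mesenchymal side, 2 of 8 tested genes were called higher and 3 were called lower in replicate 2, with a median log2 ratio of −0.28. Mir9-3, a brain miRNA, stood at 7.53 and 51.0 CPM (log2 ratio 2.74, adjusted p = 2.50e-36 by the exact binomial test), and was among the 6 genes that edgeR's exact test called (adjusted p = 0.0277). The other gene called higher was Mir10b (8.01 and 16.5 CPM, log2 ratio 1.03). Both were chosen after their values were seen. The list's other Mir9 genes were not called. Mir9-1 had 480 and 610 counts (log2 ratio 0.10), and Mir9-2 had 10 and 8 (log2 ratio −0.55). Reads with several possible places are left out, so the difference of Mir9-3 is that of reads placed at this gene alone. The 3 genes of the list with the most counts were called lower. The pair Mir221 and Mir222, known for promoting proliferation, stood at 13121 and 6552 CPM and at 4948 and 1164 CPM, and Mir21a, a widely expressed miRNA raised in many tumours, stood at 774 and 401 CPM.

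Markers of tissues in which the family is known to be expressed, or which a dissection could carry along, were measured beside it. The sensory and neuroendocrine genes Mir183, Mir96 and Mir182, which form 1 cluster, together stood at 139 CPM in the first library and 427 CPM in the second, and 2 of the 3 were called higher. Mir183 had 463 and 1651 counts (log2 ratio 1.59) and Mir182 had 119 and 489 (1.79), while Mir96, with 7 and 12 counts, did not pass. The family's sum was 2.36 times theirs in replicate 1 and 1.61 times in replicate 2, a 0.682-fold change (exact 95% interval 0.610 to 0.763). The difference between the libraries was thus larger for that cluster than for the family as a whole. Against Mir183 alone, Mir200b changed 1.23-fold (1.06 to 1.44).

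Pituitary and hypothalamus genes summed to 2703 and 2055 CPM. Mir7b (2043 and 1501 CPM, log2 ratio −0.44) and Mir375 (515 and 378 CPM, −0.45) were called lower in replicate 2, and Mir7-2 (145 and 175 CPM, 0.27) was called higher. None of the 3 was at 0. Mir200b, the member that differed most between the libraries, changed 5.04-fold relative to Mir375 (exact 95% interval 4.44 to 5.73). The family's sum differed less than Mir200b did, at a log2 ratio of 1.07 against 1.89. Choroid plexus and ependyma genes summed to 11473 and 3486 CPM, and of 9 tested genes 7 were called lower and 1 higher in replicate 2, with a median log2 ratio of −1.72. They were led by Mir204 (7102 and 2780.3 CPM), Mir1298 (2117 and 259 CPM) and Mir34c, and Mir449b was at 0 counts in both libraries. Mir34c and Mir34b (141 and 40.5 CPM), both called lower, are also on the epithelial list, so their calls are counted in both lists. The choroid plexus and ependyma gene called higher was Mir449a, at 17.7 and 28.0 CPM (log2 ratio 0.66), chosen after its values were seen. The family's sum changed 5.36-fold relative to Mir204 (5.02 to 5.73). Most called genes of these 2 lists were thus lower in replicate 2, with Mir7-2 and Mir449a higher, and the 2 called sensory and neuroendocrine genes were higher. The part of any of these tissues in the family's difference was not tested.

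Hindbrain genes of the Hox clusters had few counts, at 20.7 and 44.6 CPM in all. The 3 that could be tested were called higher in replicate 2. These were Mir10a (11.5 and 19.0 CPM), Mir10b (8.01 and 16.5 CPM), which the mesenchymal list also holds, and Mir615 (1.18 and 8.73 CPM). Mir196a-1 was at 0 in both libraries. Reads with several possible places are left out, so a 0 does not show that a miRNA was absent. The part of the hindbrain genes in the family's difference was not tested. Blood genes summed to 2169 and 1979 CPM, with 0 of 4 tested genes called higher and 2 called lower, led by the lymphocyte gene Mir150 (2138 and 1949 CPM), then Mir486 (10.1 and 15.3 CPM) and the myeloid gene Mir223 (11.5 and 6.15 CPM). Among the 10 forebrain neuron genes 4 were called higher and 6 lower, with a median log2 ratio of −0.08. Mir139 had a log2 ratio of −0.03, smaller than the 0.06 by which scaling to all reads moves every ratio. So was that of Mir138-1, called higher at 0.05 and chosen after its values were seen. Calls at ratios this small depend on the scaling used. Mir128-1 differed by −0.12 and the activity-induced Mir132 by −1.13.

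**Figure D5:**
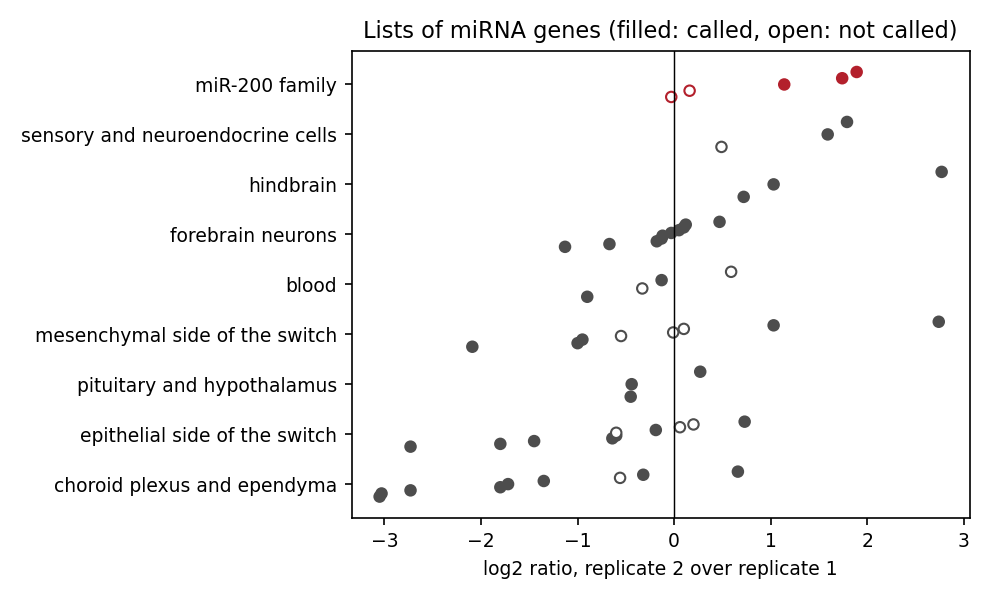
Log2 ratio of replicate 2 over replicate 1 for each tested gene of the family (red) and of the lists of other miRNA genes (grey), with filled points called by the exact binomial test and open points not called. Mir183 and Mir182 are filled and lie at 1.59 and 1.79, and 7 of the 9 tested choroid plexus and ependyma genes are filled and lie below 0.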

How the data were processed

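Small RNA of hippocampus was sequenced in 2 libraries of 1 group. Each deposited table gives unnormalized counts of reads for miRNA genes, in 3 columns and with 4 summary rows, placed on mm10 with GENCODE M21 per the file headers. Aligner and counter: not given in the sources used here. Of the columns, that on the gene's strand was used, as read from its sums, and library sizes exclude the summary rows. Reads aligned to more than 1 place are in no gene's count. Intervals are exact 95% intervals (Clopper-Pearson, or conditional for a ratio of 2 genes) and cover counting error only, since no molecular identifiers are named.

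Log2 ratios had 0.5 counts added to each library. With 1 group, no quasi-likelihood test of edgeR was run. The exact binomial test had a threshold of 0.05 after Benjamini-Hochberg adjustment. The edgeR exact test used the common dispersion of 422 genes with both libraries taken as replicates. The exact binomial test and the interval for a ratio of 2 genes were tried on simulated counts that held counting error only. The edgeR test and the comparisons of neighbouring and nearest genes were not tried on simulated counts. The rule named the 5 members, the 3 genes with the highest mean CPM in a list, and the 2 genes nearest to each member at 10 CPM or more in both libraries. The members, lists and tests were chosen with earlier results of these data known. The list entry Mir1911 was not analysed here, since its symbol matched no gene, and 55 symbols did. Alternatives tried were other scalings, minimum counts and added counts, the column without strand, the edgeR test and each library alone. Python 3.11.15, numpy 2.4.6, pandas 2.3.3, scipy 1.17.1, matplotlib 3.10.9, R 4.3.3, edgeR 4.0.16 and DESeq2 1.42.0 were used.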

Additional observations from a re-analysis of the deposited data

How the results depend on the processing

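With only 2 libraries, the log2 ratios and the ratios between members cannot be computed with either one left out. Scaling to all reads instead of reads on miRNA genes put the summed level of the family at 199.9 CPM of all reads, because the denominator is larger. It also moved every log2 ratio by 0.06, which turned that of Mir200a from −0.03 to 0.03 and brought Mir429 past the threshold (log2 ratio 0.22, exact test, adjusted p = 0.00888). Mir429 also passed on counts without regard to strand (adjusted p = 0.0459, exact test) and ranged up to an adjusted p of 0.420 under the other alternatives of the binomial test. Every log2 ratio moved by −0.07 with TMM and by −0.08 with the size factors of DESeq2. The summed level was 328 CPM in replicate 1 alone and 688 CPM in replicate 2 alone. Mir200b, Mir200c and Mir141 stayed called as higher in replicate 2 under every scaling and column tried; Mir141 was not tested at a minimum of 100 counts. The edgeR exact test with the pooled dispersion called 0 members and 6 genes in all, 3 higher and 3 lower, against 266, 147 and 119 by the binomial test. The 10 ratios between members stayed inside their intervals on counts without regard to strand. For the members these counts differ from those used by only 1 count, of Mir200a in replicate 1, so they could hardly move the ratios. Depth limits Mir141 most, with 17 counts in replicate 1.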

Other observations

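The last base of the 3′ arm was read beside the difference between the libraries, after the values were seen. The arms of Mir200b and Mir200c end in A and that of Mir141 in G, and these 3 genes were called higher in replicate 2. The arms of Mir200a and Mir429 end in U, and neither was called. Over 419 tested genes with a listed 3′ arm, the median log2 ratio was 0.12 for arms ending in A (76 genes), 0.09 for G (143 genes), 0.07 for C (94 genes) and 0.01 for U (106 genes). Called higher and lower in replicate 2 were 25 and 18 of the genes ending in A, 25 and 23 of those in G, 33 and 29 of those in C, and 40 and 29 of those in U, beside 28.2% and 22.8% over all tested genes. The part of the last base in the members' difference was not tested, and which arm the reads of a hairpin came from is not in the counts.

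On the strand opposite the gene, 1 count was listed for Mir200a in replicate 1, and 0 for the other 4 members in either library.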
